A study of Mus musculus with 16 samples.

Results

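Macrophages depend on colony-stimulating factors (CSFs), which act through surface receptors, and on a small set of transcription factors that hold their identity. The receptors for M-CSF, GM-CSF and G-CSF pass their signal through tyrosine kinases to growth, survival and differentiation genes. The factor PU.1 opens macrophage enhancers and works there with C/EBP, IRF and MAF family factors, while IL-4, acting through STAT6, moves these cells to alternative (M2) activation. Here 9 genes of this kind were chosen by name and followed through the 16 libraries of the series, out of 10920 genes in the files. They were 4 receptor genes (Csf1r, Csf2ra, Csf2rb and Csf3r) and 5 transcription factor genes (Spi1, Maf, Cebpa, Cebpb and Irf8). All 9 were found, and all 9 passed the filter for low values that left 9891 genes in the tests. The lowest single value of any of them was 20.4 FPKM (fragments per unit of transcript length and of mapped reads), so none of the 9 passed the filter through a single group.

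The cells were bone-marrow-derived macrophages of C57BL/6 mice aged 8 weeks, differentiated in M-CSF (20 ng/ml) over 7 days. Mice were wild type or carried Sirt3K223R, a lysine-to-arginine change in the mitochondrial deacetylase Sirt3, and cells then stayed untreated or received IL-4 (20 ng/ml) for 24 hours. Each of the 4 groups (wild type untreated, wild type with IL-4, Sirt3 K223R untreated, Sirt3 K223R with IL-4) had 4 libraries. The labels do not say how the allele was made, whether the mice were homozygous, or whether replicates came from separate mice, so p-values measure the spread between these libraries, which may in part be technical.

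Arg1, the arginase gene that marks IL-4 action, averaged 2.05 FPKM in untreated and 320 FPKM in IL-4-treated wild-type cells, and 1.84 and 356 FPKM in Sirt3 K223R cells. Sirt3 itself averaged between 1.32 and 1.56 FPKM in the 4 groups, which checks no genotype because the change is a point mutation. Of 15 macrophage marker genes 14 were in the files, Csf1r among them, and the 13 others had a summed level between 12734 and 18803 FPKM in every library. Of 7 mast cell and basophil markers 0 were in the files, and the only lymphocyte marker among 10 that was present, Cd79b, lay between 0.524 and 2.07 FPKM. Replicate 2 of the IL-4-treated Sirt3 K223R cells stood apart a little, with a median correlation of 0.98 with its own group against at least 0.985 for the others. Tables of the mutant libraries have an added column with the type of each gene, absent from the wild-type tables, and an unequal processing of the genotypes cannot be told apart from genotype. Sequencing depth is unknown because the values are not counts.

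Across all genes tested, 26.0% were called for IL-4 in wild type and 42.6% for IL-4 in Sirt3 K223R (limma, adjusted p under 0.05). Between genotypes, 0% were called in untreated cells and 15.0% after IL-4, and 2.14% were called for the interaction, the difference between the IL-4 responses of the genotypes. The share of calls that were higher depended on scaling. With median-ratio scaling it went from 41% to 53.5% for IL-4 in wild type, from 31.6% to 52.1% for IL-4 in Sirt3 K223R, from 33.3% to 57.2% between genotypes after IL-4, and from 36.3% to 59% for the interaction.

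All of the receptor and factor genes were well expressed in untreated wild-type macrophages. Per transcript length, Csf1r was the highest of the 9 at 508 ± 47.3 FPKM (SD, n = 4), rank 62 of the 10920 genes. Cebpa followed with 140 ± 29.7 FPKM, Spi1 with 126 ± 7.94 FPKM and Csf2ra with 122 ± 4.92 FPKM, and libraries of neighbours in this order overlapped, while Csf1r overlapped with none. Cebpb with 88.2 ± 7.88 FPKM and Csf2rb with 87.8 ± 8.1 FPKM overlapped as well. Maf at 51.7 ± 7.84 FPKM stood between them and the lowest pair, Csf3r at 31.3 ± 1.21 FPKM and Irf8 at 28.5 ± 2.26 FPKM, which overlapped. Even the lowest of the 9, Irf8, was above 86.0% of the genes in the files.

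IL-4 changed this order. Csf2rb moved from near the middle to the place after Csf1r in both genotypes, with 176 ± 5.3 FPKM in wild type and 208 ± 21.2 FPKM in Sirt3 K223R. In wild type its libraries did not overlap with those of Csf2ra, but Cebpa reached 177 FPKM in replicate 3, within the Csf2rb range of 169 to 181 FPKM. In Sirt3 K223R the libraries of Csf2rb and Csf2ra overlapped. Maf moved to the low end, to 27.1 ± 4.45 FPKM in wild type, where it overlapped with Irf8, and to 23.0 ± 1.52 FPKM in Sirt3 K223R, where it was the lowest of the 9 and again overlapped with Irf8. Over all 16 libraries the highest value was 3.02 times the lowest for Csf2rb and 2.92 times for Maf, against 1.30 times for Csf1r and 1.23 times for Spi1.

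**Figure D1:**
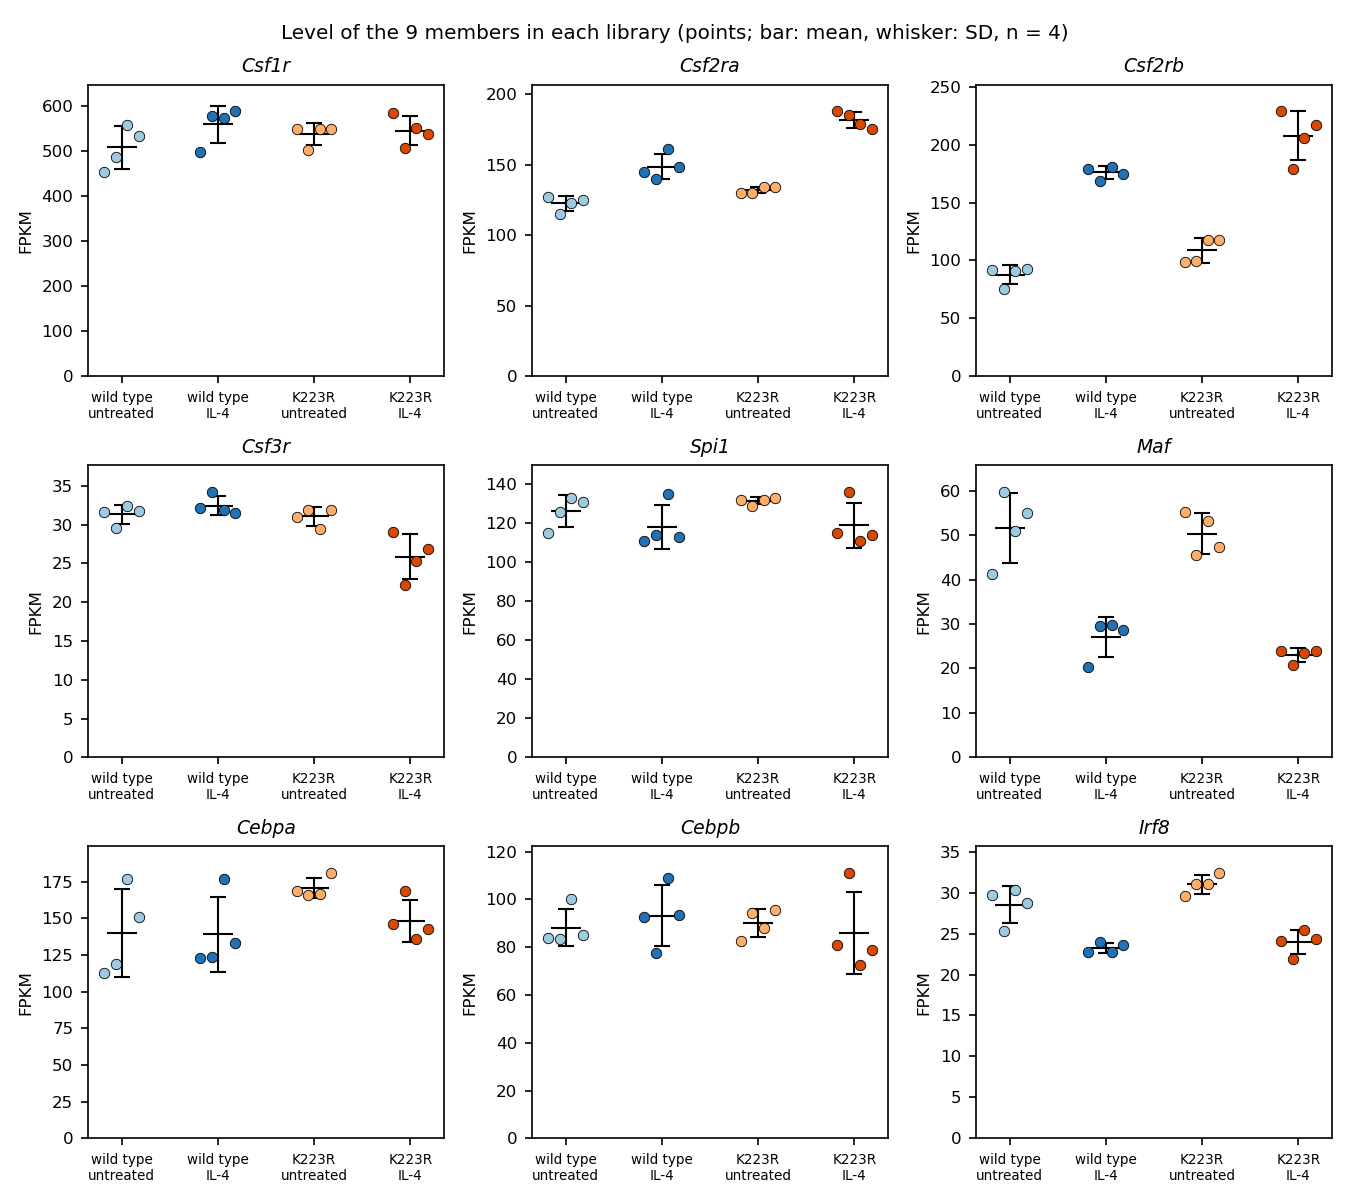
Levels of the 9 genes in FPKM (vertical axis, starting at 0) by group, with 1 point per library, a bar for the mean and whiskers for the SD (n = 4). Csf2rb rises from 75.7 to 92.6 FPKM in untreated to 169 to 181 FPKM in IL-4-treated wild-type cells, Maf falls in both genotypes, and Csf1r stays between 452 and 588 FPKM.

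In wild-type cells, IL-4 raised 2 of the 9 genes, the GM-CSF receptor chain genes Csf2ra and Csf2rb, and lowered 2, the factor genes Maf and Irf8, where 10.7% of all genes tested were called higher and 15.3% lower. In Sirt3 K223R cells the same 4 genes were called with the same signs and Csf3r was lower as well, giving 2 higher and 3 lower of 9 against 13.5% and 29.1% of all genes. The M-CSF receptor gene Csf1r and the factor genes Spi1, Cebpa and Cebpb were called in neither genotype. Between genotypes, 0 of 9 were called in untreated cells in limma (0% of all genes in either direction), with an unadjusted p under 0.05 for 3 of 9 (Cebpa, Csf2ra and Csf2rb) and for 737 of all genes. After IL-4, Csf2ra was higher and Csf3r lower in Sirt3 K223R, which is 1 of 9 in each direction against 5.0% and 10.0% of all genes. For the interaction 0 of 9 were called in limma, where 0.778% of all genes were called higher and 1.36% lower, with an unadjusted p under 0.05 for 2 of 9 (Csf2ra and Csf3r) and for 1588 of the 9891 genes. The median log2 change of the 9 was 0.05 in wild type and -0.15 in Sirt3 K223R, against -0.04 and -0.09 for all genes tested. Without replicate 2 of the IL-4-treated Sirt3 K223R cells, 6 of 9 were called for IL-4 in that genotype, where 4128 of the 9891 genes were, and 3 of 9 between genotypes after IL-4, where 1573 of the 9891 were.

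**Figure D2:**
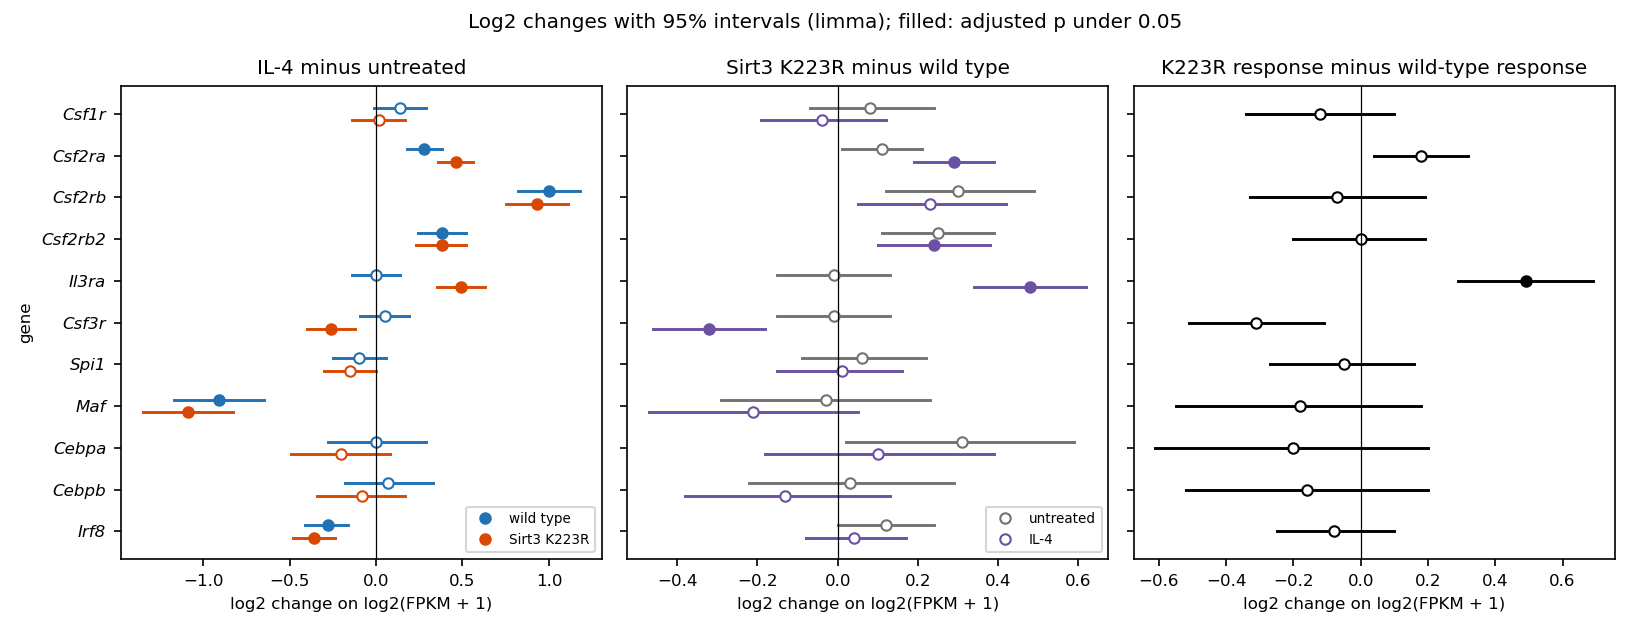
Log2 changes on the log2(FPKM + 1) scale (horizontal axes) with 95% intervals for the 9 genes and 2 further receptor chain genes, Csf2rb2 and Il3ra. Filled points have an adjusted p under 0.05 in limma, and among the differences between the IL-4 responses in the right panel only Il3ra, at 0.49, is filled.

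Csf1r encodes the receptor tyrosine kinase for M-CSF, in which these cells were grown, and for IL-34. It lies at chr18:61105572-61132149 on the plus strand (GRCm38), and its longest transcript model has 22 exons. Its level lay between 452 and 558 FPKM in untreated and between 497 and 588 FPKM in IL-4-treated wild-type libraries. In Sirt3 K223R it lay between 501 and 549 FPKM untreated and between 505 and 583 FPKM with IL-4, so all 4 groups overlapped. The log2 change with IL-4 was 0.14 in wild type (95% interval -0.01 to 0.29, limma adjusted p = 0.182) and 0.02 in Sirt3 K223R (-0.14 to 0.17, adjusted p = 0.866). Same-numbered wild-type libraries deviated together, and with the replicate number within genotype as a fixed block the wild-type change of 0.14 was called (adjusted p = 0.0453), but with that number as a random effect it was not (adjusted p = 0.117). Between genotypes the log2 difference was 0.08 in untreated cells (-0.07 to 0.24) and -0.04 after IL-4 (-0.19 to 0.12).

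Csf2ra encodes the chain of the GM-CSF receptor that binds the ligand, and it rose with IL-4 in both genotypes, to a higher level in Sirt3 K223R. It lies at chr19:61224402-61228418 on the minus strand. Levels in the 4 untreated wild-type libraries were 127, 115, 123 and 125 FPKM, and with IL-4 they were 145, 140, 161 and 148 FPKM. In Sirt3 K223R they were 130, 130, 134 and 134 FPKM untreated and 188, 185, 179 and 175 FPKM with IL-4. Every IL-4-treated library was above every untreated one, and every IL-4-treated Sirt3 K223R library was above every other library of the series. The log2 change was 0.28 (SE 0.05, limma adjusted p = 0.00034) in wild type and 0.46 (SE 0.05, adjusted p = 1.35e-06) in Sirt3 K223R. After IL-4 Sirt3 K223R was higher by 0.29 (SE 0.05, adjusted p = 0.000998), that is 182 ± 5.66 against 149 ± 8.82 FPKM, and between 0.26 and 0.33 with any 1 library left out (adjusted p up to 0.00427). In untreated cells the difference was 0.11 (95% interval 0.01 to 0.21), with no overlap between the 4 and 4 libraries but an adjusted p of 0.626 in limma. The difference between the IL-4 responses, 0.18 (0.04 to 0.32), had an adjusted p of 0.186. Quantile normalization ended the wild-type call, with a change of 0.12 and an adjusted p of 0.107 in limma. Transcripts of Csf2ra are rich in GC, with 61.5% (above 98.1% of the genes), and the part of GC content in these differences was not tested.

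Csf2rb encodes the common beta chain, which carries the signal of the GM-CSF, IL-3 and IL-5 receptors, and it had the largest IL-4 rise of the 9. It lies at chr15:78325990-78351000 on the plus strand. Untreated wild-type libraries held 92.1, 75.7, 90.8 and 92.6 FPKM, and IL-4-treated ones 179, 169, 181 and 175 FPKM. In Sirt3 K223R the values were 98.8, 99.8, 118 and 118 FPKM untreated and 229, 179, 206 and 217 FPKM with IL-4. The treated and untreated ranges were far apart in both genotypes. The IL-4 level was 2.00 times the untreated level in wild type (log2 change 1.00, SE 0.09, limma adjusted p = 4.17e-07) and 1.91 times in Sirt3 K223R (0.93, SE 0.09, adjusted p = 4.81e-07). The responses differed by -0.07 (95% interval -0.33 to 0.19, adjusted p = 0.823). In untreated cells all 4 Sirt3 K223R libraries were above all 4 wild-type libraries, by 0.30 on the log2 scale (0.12 to 0.49), with an adjusted p of 0.376 among the 9891 genes. After IL-4 the difference of 0.23 (0.05 to 0.42) had an adjusted p of 0.0773, the groups overlapping through replicate 2 of Sirt3 K223R at 179 FPKM. Without that library the adjusted p was 0.0201, and with median-ratio scaling it was 0.0167, with a difference of 0.30. Other alternatives, left-out libraries among them, gave limma adjusted p-values up to 0.185.

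The mouse genome holds a neighbour of this gene, Csf2rb2 (chr15:78282517-78305603, minus strand), whose product is a beta chain for the IL-3 receptor alone. Its transcript is 91.0% identical to that of Csf2rb over 4655 aligned bases, and 3.6% of windows of 150 bases in either transcript occur in the other. How fragments shared by the pair were assigned is not given in the sources used here, so the division between them is uncertain. Csf2rb2 averaged 111 FPKM in untreated and 144 FPKM in IL-4-treated wild-type cells, and 131 and 171 FPKM in Sirt3 K223R. Its log2 change was 0.38 in both (limma adjusted p = 0.000469 and 0.000305), calls that quantile normalization ended (adjusted p up to 0.0707). The ratio of Csf2rb to Csf2rb2 lay between 0.78 and 0.81 in untreated and between 1.19 and 1.26 in IL-4-treated wild-type libraries. In Sirt3 K223R it lay between 0.81 and 0.85 untreated and between 1.07 and 1.29 with IL-4, so within each genotype the ranges did not overlap. Between genotypes after IL-4 Csf2rb2 was higher in Sirt3 K223R by 0.24 (SE 0.07, adjusted p = 0.022), a call that ended with quantile normalization and without replicate 2 of wild type or replicate 1 of Sirt3 K223R among the IL-4-treated libraries (adjusted p up to 0.0615).

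Il3ra, the gene of the chain that binds IL-3, was the receptor gene whose IL-4 response differed between genotypes. Its mean was 15.8 FPKM in untreated and 15.9 FPKM in IL-4-treated wild-type cells, and 15.8 and 22.6 FPKM in Sirt3 K223R. All 4 IL-4-treated Sirt3 K223R libraries, from 19.9 to 25.6 FPKM, lay above the 12 others, which reached 16.6 FPKM at most. The log2 change was 0.00 (95% interval -0.14 to 0.14) in wild type and 0.49 (SE 0.07, limma adjusted p = 2.52e-05) in Sirt3 K223R. The difference between the responses, 0.49 (SE 0.09), had an adjusted p of 0.0159, and of up to 0.0391 in the alternatives tried. Like Csf2ra it has GC-rich transcripts, at 60.7% and above 97.1% of the genes. Of the ligands Csf1, Csf2, Csf3, Il3, Il5 and Il34, Csf1 (M-CSF) was the one found in the files, between 0.466 and 1.13 FPKM, and it was too low to be tested.

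**Figure D3:**
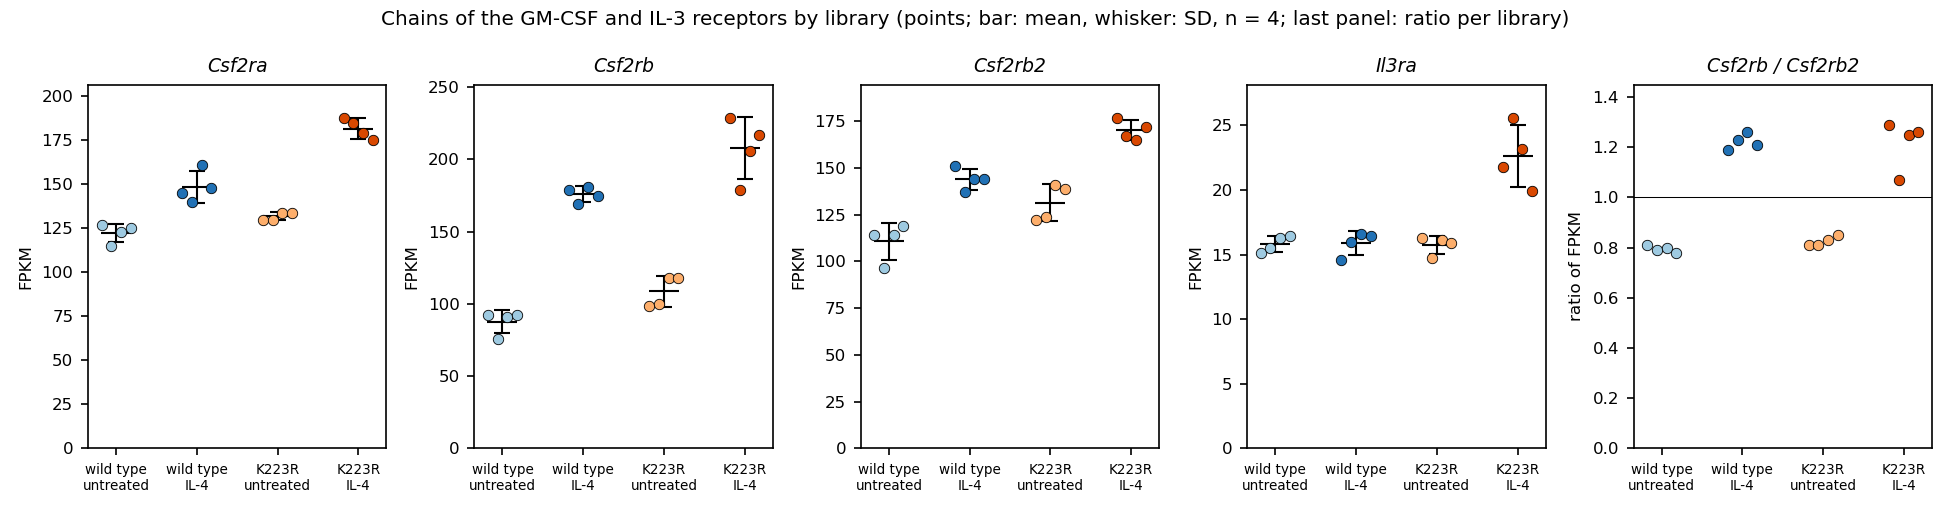
Levels of 4 chain genes of the GM-CSF and IL-3 receptors in FPKM (vertical axes from 0) by group, with the mean and SD (n = 4), and the ratio of Csf2rb to Csf2rb2 in each library. The ratio lies at or under 0.85 in all untreated libraries and at or above 1.07 in all IL-4-treated ones, and Il3ra is raised in the IL-4-treated Sirt3 K223R libraries.

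Csf3r encodes the G-CSF receptor, known for its role in neutrophil production. It lies at chr4:126024550-126044440 on the plus strand. It held 31.6, 29.6, 32.4 and 31.8 FPKM in untreated and 32.1, 34.2, 31.9 and 31.5 FPKM in IL-4-treated wild-type libraries. In Sirt3 K223R it held 31.0, 31.9, 29.4 and 31.9 FPKM untreated and 29.1, 22.2, 25.3 and 26.9 FPKM with IL-4. The IL-4-treated Sirt3 K223R libraries lay under every other library, the nearest values being 29.1 and 29.4 FPKM. The log2 change in Sirt3 K223R was -0.26 (SE 0.07, limma adjusted p = 0.00497), and with median-ratio scaling it was -0.15 with an adjusted p of 0.0597. In wild type it was 0.05 (95% interval -0.09 to 0.19). After IL-4 Sirt3 K223R was lower by 0.32 on the log2 scale (log2 difference -0.32, SE 0.07, adjusted p = 0.00491). The difference between the responses of -0.31 (-0.51 to -0.11) had an adjusted p of 0.109 in limma. It was 0.0458 without replicate 1 of the IL-4-treated Sirt3 K223R cells, and up to 0.188 without another library. Of 14 neutrophil and granulocyte precursor markers 8 were in the files, Csf3r among them. With IL-4, 4 of the 7 others were called lower in wild type, against 15.3% of all genes, where Csf3r was not called. Among those 4, Lcn2 and Ltf had overlapping libraries. Their calls were lost in 1 and 5 of the alternatives (limma adjusted p up to 0.0526 and 0.0739). In Sirt3 K223R, where Csf3r was called, 6 of 7 were called lower, against 29.1% of all genes. Between genotypes after IL-4, 1 of the 7 was called lower in Sirt3 K223R, against 10.0% of all genes. This was S100a8 (log2 difference -0.65, limma adjusted p = 0.0415). The count was 0 of 7 with median-ratio scaling, with quantile normalization or without replicate 2 of the IL-4-treated Sirt3 K223R cells. The 7 summed to between 93.2 and 176 FPKM in untreated and between 66.9 and 119 FPKM in IL-4-treated wild-type libraries, and to between 120 and 162 and between 58.8 and 84.2 FPKM in Sirt3 K223R. Their part in the Csf3r difference was not tested, and in bulk RNA fewer cells of a type and less RNA per cell cannot be told apart.

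Promoters from RefSeq (GRCm38.p6) are shown for Csf2ra, Csf2rb2, Csf3r and Irf8, because they let the letters around each start be read beside the change. These are called genes whose windows held letters that were searched. Il3ra, also called, had an entry without such letters, which is not shown. The windows reach from 250 bases before the start of transcription to 50 after it. Of 11 genes looked up, 7 had an entry, among them 5 of the 9 (Csf2ra, Csf3r, Cebpa, Cebpb and Irf8); for Irf8 the first of 2 entries is shown. Capitals mark the PU.1 core GAGGAAG, read on either strand, and the STAT5-type site TTCNNNGAA. A STAT6-type site (TTC and GAA with 4 bases between) and a composite of ETS and IRF letters (GGAA and GAAA with 2 bases between) were searched as well, on both strands, and not found in these 4.
Csf2ra (chr19:61228369-61228668, minus strand): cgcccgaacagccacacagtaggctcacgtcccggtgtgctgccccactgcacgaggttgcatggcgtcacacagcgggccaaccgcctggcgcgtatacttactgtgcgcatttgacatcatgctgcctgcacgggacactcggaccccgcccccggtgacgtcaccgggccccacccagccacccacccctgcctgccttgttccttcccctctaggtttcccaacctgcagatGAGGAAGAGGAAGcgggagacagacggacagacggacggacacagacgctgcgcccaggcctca
Csf2rb2 (chr15:78305672-78305971, minus strand): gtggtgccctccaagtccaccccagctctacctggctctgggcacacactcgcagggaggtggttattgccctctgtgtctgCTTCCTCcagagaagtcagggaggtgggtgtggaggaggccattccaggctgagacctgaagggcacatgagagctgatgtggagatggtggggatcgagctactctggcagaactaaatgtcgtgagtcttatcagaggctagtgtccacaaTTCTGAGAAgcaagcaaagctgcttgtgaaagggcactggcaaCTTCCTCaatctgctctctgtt
Csf3r (chr4:126024409-126024708, plus strand): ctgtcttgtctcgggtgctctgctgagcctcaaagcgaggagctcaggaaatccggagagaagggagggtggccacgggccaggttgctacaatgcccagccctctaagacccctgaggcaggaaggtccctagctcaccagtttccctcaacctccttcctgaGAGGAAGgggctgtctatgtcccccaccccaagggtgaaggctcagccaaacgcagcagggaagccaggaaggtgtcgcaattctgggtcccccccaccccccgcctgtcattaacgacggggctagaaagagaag
Irf8 (chr8:120736108-120736407, plus strand): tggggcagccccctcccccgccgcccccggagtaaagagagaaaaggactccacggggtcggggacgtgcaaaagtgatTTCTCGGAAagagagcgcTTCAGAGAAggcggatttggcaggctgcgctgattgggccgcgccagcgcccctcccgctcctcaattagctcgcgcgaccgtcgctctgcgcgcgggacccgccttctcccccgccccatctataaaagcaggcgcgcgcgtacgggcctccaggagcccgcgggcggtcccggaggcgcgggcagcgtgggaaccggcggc

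Counting the first transcribed base as 0, the Csf2ra promoter held GAGGAAG from -14 to -8 and from -8 to -2, a pair that shares a G. In Csf3r the same letters stood from -86 to -80. Csf2rb2 held them on the opposite strand, from -168 to -162 and from 28 to 34, and TTCNNNGAA from -15 to -7. Irf8 held TTCNNNGAA from -171 to -163 and from -153 to -145. Over 32851 mouse promoters of the same length, 13.6% held GAGGAAG, 8.3% TTCNNNGAA, 6.95% the STAT6-type site and 2.72% the composite on either strand. The windows of Cebpa, Cebpb and Il3ra and the Irf8 entry not shown held none of these letters. These matches describe the letters and show no binding.

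Spi1 encodes PU.1, the ETS factor without which macrophages do not form, and it was among the steadiest of the 9. It lies at chr2:91082390-91115756 on the plus strand. Untreated and IL-4-treated wild-type libraries spanned 115 to 133 and 111 to 135 FPKM, and those of Sirt3 K223R spanned 129 to 133 and 111 to 136 FPKM. In each genotype 3 of the 4 treated libraries lay at or under 115 FPKM and 1 lay at 135 or 136 FPKM, above all untreated ones. The log2 change was -0.10 (95% interval -0.25 to 0.06, limma adjusted p = 0.376) in wild type and -0.15 (-0.30 to 0.00, adjusted p = 0.11) in Sirt3 K223R. Quantile normalization gave -0.24 (adjusted p = 0.0196) and -0.29 (adjusted p = 0.0047), and leaving out replicate 2 of the IL-4-treated Sirt3 K223R cells gave -0.21 (adjusted p = 0.0147) there. Other alternatives gave limma adjusted p-values up to 0.771 in wild type and 0.761 in Sirt3 K223R. The genotypes differed by 0.06 (-0.09 to 0.22) untreated and 0.01 (-0.15 to 0.16) with IL-4.

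Cebpa and Cebpb encode C/EBP factors, the former needed early in myeloid development and the latter known for its part in macrophage activation. They lie at chr7:35119293-35121928 and chr2:167688915-167690418, both on the plus strand, and Cebpb has 1 exon. Cebpa spanned 113 to 177 FPKM in untreated and 123 to 177 FPKM in IL-4-treated wild-type libraries, and 166 to 181 and 136 to 169 FPKM in Sirt3 K223R. Its log2 change with IL-4 was 0.00 (95% interval -0.28 to 0.29) in wild type and -0.20 (-0.49 to 0.08) in Sirt3 K223R. Quantile normalization gave -0.37 in Sirt3 K223R (limma adjusted p = 0.0459), while other alternatives gave adjusted p-values up to 0.651 there. In untreated cells Cebpa was 0.31 higher on the log2 scale in Sirt3 K223R (0.02 to 0.59, adjusted p = 0.653), with overlapping libraries. Cebpb spanned 83.6 to 100 and 77.7 to 109 FPKM in wild type and 82.7 to 95.5 and 72.6 to 111 FPKM in Sirt3 K223R, untreated and with IL-4. Its change was 0.07 (-0.18 to 0.33) in wild type and -0.08 (-0.34 to 0.17) in Sirt3 K223R, and libraries of all 4 groups overlapped.

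Irf8 encodes an interferon regulatory factor that joins PU.1 on composite sites and directs monocyte and dendritic cell development. It lies at chr8:120736358-120756694 on the plus strand. Levels were 29.7, 25.3, 30.3 and 28.8 FPKM in untreated and 22.7, 24.0, 22.8 and 23.6 FPKM in IL-4-treated wild-type libraries. In Sirt3 K223R they were 29.6, 31.1, 31.0 and 32.4 FPKM untreated and 24.1, 21.9, 25.4 and 24.4 FPKM with IL-4. Treated and untreated libraries did not overlap in either genotype. The log2 change was -0.28 (SE 0.06, limma adjusted p = 0.00196) in wild type and -0.36 (SE 0.06, adjusted p = 0.000149) in Sirt3 K223R, and every alternative kept both calls, with adjusted p-values up to 0.00982. The responses differed by -0.08 (95% interval -0.25 to 0.10).

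Maf encodes c-Maf, a bZIP factor of mature tissue macrophages with a part in restraining their self-renewal, and it had the largest IL-4 fall of the 9. It lies at chr8:115682942-115707794 on the minus strand. Untreated wild-type libraries held 41.2, 59.7, 50.9 and 54.9 FPKM and IL-4-treated ones 20.4, 29.5, 29.7 and 28.7 FPKM. In Sirt3 K223R the levels were 55.3, 45.6, 53.1 and 47.3 FPKM untreated and 23.9, 20.8, 23.4 and 24.0 FPKM with IL-4. The highest treated library, at 29.7 FPKM, lay well under the lowest untreated one, at 41.2 FPKM. The treated level was 0.524 times the untreated one in wild type (log2 change -0.91, SE 0.12, limma adjusted p = 4.38e-05) and 0.457 times in Sirt3 K223R (-1.09, SE 0.12, adjusted p = 3.71e-06). After IL-4 the genotypes differed by -0.21 (95% interval -0.47 to 0.05, adjusted p = 0.255), and by -0.34 (adjusted p = 0.0485) without replicate 1 of the IL-4-treated wild-type cells. Without another library the limma adjusted p was up to 0.441.

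Of 26 other myeloid lineage factor genes tested, 8 rose and 5 fell with IL-4 in wild type, against 10.7% and 15.3% of all genes. In Sirt3 K223R 8 rose and 7 fell, against 13.5% and 29.1% of all genes, and the medians were 0.05 and -0.03. Irf4, an IRF known from alternatively activated macrophages, rose from 0.149 to 6.02 FPKM in wild type and from 0.252 to 8.83 FPKM in Sirt3 K223R (limma adjusted p = 1.71e-09 and 2.39e-10), where its family member Irf8 fell. Batf3, a dendritic cell bZIP factor, rose from 1.16 to 9.24 FPKM and from 1.16 to 11.9 FPKM. Egr2 rose from 14.1 to 56.9 FPKM in wild type. Mitf, a factor with a role in osteoclasts, rose from 18.3 to 29.3 FPKM in wild type and from 19.1 to 28.1 FPKM in Sirt3 K223R. Tfec, a relative of Mitf, rose from 2.58 to 6.88 FPKM in wild type and from 2.62 to 8.24 FPKM in Sirt3 K223R. The interaction was called for neither Mitf nor Tfec (limma adjusted p = 0.691 and 0.643). In Sirt3 K223R Bcl6, a repressor, fell from 17.4 to 11.8 FPKM. Between genotypes after IL-4, 1 of 26 was higher and 4 were lower, against 5.0% and 10.0% of all genes, a split of 2 and 2 with median-ratio scaling. The higher one was Irf4 (log2 difference 0.45, limma adjusted p = 0.033). Its libraries overlapped, and the call was lost in 8 of the alternatives (adjusted p up to 0.135). Id2, an inhibitor of bHLH factors, averaged 61.8 FPKM in Sirt3 K223R against 117 FPKM in wild type (log2 difference -0.89, adjusted p = 0.000594), and its IL-4 responses differed by -1.06 (SE 0.19, adjusted p = 0.0102).

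**Figure D4:**
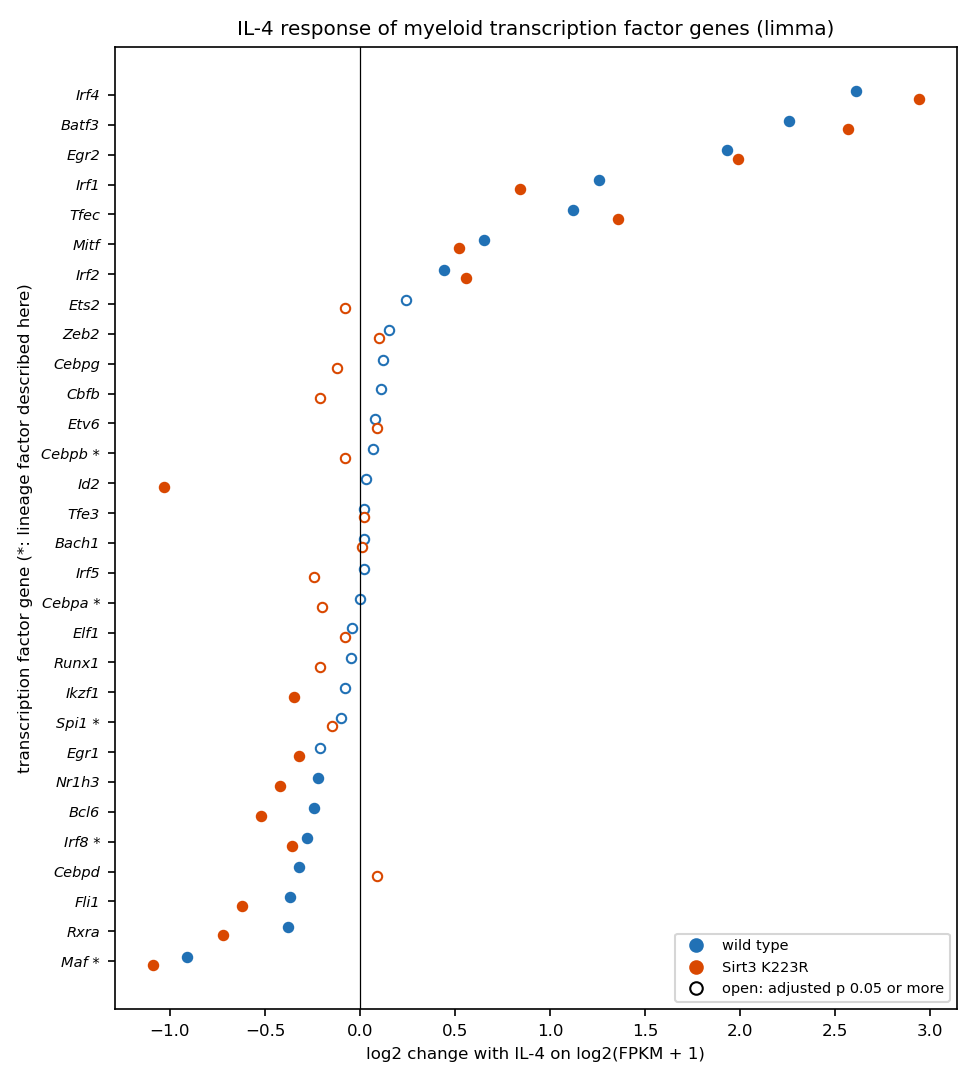
Log2 change with IL-4 on the log2(FPKM + 1) scale (horizontal axis) of the 5 lineage factor genes (asterisks) and 25 of the 26 others, with wild type in blue and Sirt3 K223R in orange and open points for an adjusted p of 0.05 or more in limma. Irf4 at 2.61 and 2.94 is at the top, Maf at -0.91 and -1.09 at the bottom, and Spi1, Cebpa and Cebpb lie near 0.

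Of 30 genes of signalling proteins downstream of the CSF receptors, 3 rose and 7 fell with IL-4 in wild type, against 10.7% and 15.3% of all genes, or 5 and 6 with median-ratio scaling. In Sirt3 K223R 7 rose and 10 fell, against 13.5% and 29.1% of all genes, and median-ratio scaling turned the balance to 11 and 6. Jak2, the kinase bound to the common beta chain, rose with IL-4 from 8.81 to 19.9 FPKM in wild type and from 8.98 to 18.3 FPKM in Sirt3 K223R (limma adjusted p = 2.81e-08 and 5.97e-08). Fyn, a Src family kinase, rose from 5.91 to 20.6 FPKM and from 5.81 to 21.2 FPKM. Vav1, an exchange factor for small GTPases, fell from 54.4 to 37.4 FPKM and from 55.3 to 35.4 FPKM.

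Between genotypes after IL-4, 4 of the 30 signalling genes were higher and 2 lower in Sirt3 K223R, against 5.0% and 10.0% of all genes. Src itself averaged 6.57 FPKM against 3.45 FPKM in wild type (log2 difference 0.77, limma adjusted p = 5.82e-05). Fgr, a Src family kinase of myeloid cells, averaged 0.888 against 2.07 FPKM (-0.71, adjusted p = 0.000572), and its responses differed by -1.01 (SE 0.15, adjusted p = 0.00436). Tyk2, a Janus kinase, averaged 12.9 against 11.1 FPKM (0.20, adjusted p = 0.0136), a call that did not hold with only the compared groups in the fit (adjusted p = 0.0766). The interaction for Src, 0.57 (adjusted p = 0.0254), was lost without replicate 1 of the untreated wild-type cells or replicate 3 of the IL-4-treated Sirt3 K223R cells (adjusted p up to 0.0551).

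Among genes of proteins that damp CSF receptor signals, 6 of 17 rose and 5 fell in wild type, against 10.7% and 15.3% of all genes, and 6 rose and 6 fell in Sirt3 K223R, against 13.5% and 29.1%. Socs1, a suppressor of cytokine signalling, rose from 1.11 to 14.4 FPKM and from 0.987 to 18.5 FPKM (limma adjusted p = 1.71e-09 and 2.25e-10). Socs2, from the same family, rose from 0.139 to 1.61 FPKM in wild type and from 0.129 to 1.83 FPKM in Sirt3 K223R. Cblb, a ubiquitin ligase, went from 7.26 to 17.8 FPKM in wild type and from 8.24 to 30.6 FPKM in Sirt3 K223R, and Dok2, an adaptor, from 20.3 to 36.5 and from 18.8 to 43.5 FPKM. Spry2, a brake on receptor tyrosine kinase signals, fell from 5.22 to 2.63 FPKM in wild type and from 5.64 to 1.43 FPKM in Sirt3 K223R. After IL-4 its level there was under that of wild type, 1.43 against 2.63 FPKM (log2 difference -0.58, adjusted p = 0.000446), and the responses differed by -0.67 (SE 0.12, adjusted p = 0.00978). Dusp6, a phosphatase of ERK, averaged 3.06 against 4.94 FPKM (-0.53, adjusted p = 0.00715). Cblb was higher in Sirt3 K223R after IL-4, at 30.6 against 17.8 FPKM (0.75, adjusted p = 0.000153), while its interaction of 0.59 (adjusted p = 0.0322) was lost in 12 of the alternatives, each of which left out a library (adjusted p up to 0.0722).

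Genes known as GM-CSF responsive in macrophages and dendritic cells were looked at as well, although the labels name no GM-CSF. This list, like the others, was chosen with earlier results of these data known. Its counts beside the shares of all genes are therefore a description and no test. Of 16 tested, 11 rose with IL-4 and 1 fell in wild type, against 10.7% and 15.3% of all genes. In Sirt3 K223R 11 rose and 2 fell, against 13.5% and 29.1%, with median log2 changes of 0.96 and 1.19 against -0.04 and -0.09 for all genes. Osm, a cytokine gene, fell in both genotypes, and Fabp4, Il1rn and Bcl2a1a were called in neither, genes named here after their values were seen. The list shares Irf4 with the lineage factors, Socs2 and Cish with the attenuators, Bcl2l1 with the IRF8 list and Csf2rb2 with the receptor genes above, where quantile normalization ended the calls of Csf2rb2, and several of its genes are also known to answer to IL-4. Itgax, the integrin gene of CD11c, rose from 85.6 to 282 FPKM in wild type and from 82.5 to 389 FPKM in Sirt3 K223R (limma adjusted p = 1.04e-08 and 2.63e-10). Pparg, a nuclear receptor of alternatively activated macrophages, rose from 19.1 to 41.4 FPKM in Sirt3 K223R. Ccl17, a chemokine gene, was listed at 0 in untreated cells and averaged 3.34 and 2.33 FPKM with IL-4. After IL-4, 5 of the 16, Csf2rb2 and Irf4 among them, were higher and 0 lower in Sirt3 K223R than in wild type, against 5.0% and 10.0% of all genes. The call was lost in 3 of the alternatives for Csf2rb2 and in 8 for Irf4. Pim1, a kinase gene, averaged 29.3 against 18.3 FPKM (log2 difference 0.67, adjusted p = 0.00234), and Ccl24, an eosinophil chemokine gene, 4.31 against 1.37 FPKM (1.08, adjusted p = 0.0029).

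Spi1, the gene of PU.1, was not called with IL-4. Of 21 genes under the control of PU.1 in macrophages, counting both identifiers of Itgam, 4 rose and 7 fell in wild type, against 10.7% and 15.3% of all genes, and 5 rose and 8 fell in Sirt3 K223R, against 13.5% and 29.1%, a split of 8 and 8 with median-ratio scaling. Tlr2, a bacterial lipoprotein receptor gene, fell from 26.2 to 7.49 FPKM and from 23.3 to 5.2 FPKM (limma adjusted p = 5.37e-08 and 4.36e-09). Fcgr1, a receptor gene for IgG, fell from 41.5 to 21 FPKM and from 38.1 to 11.5 FPKM. Itgb2, the shared integrin beta chain gene of leukocytes, rose from 336 to 454 FPKM and from 346 to 536 FPKM. After IL-4 Fcgr1 (log2 difference -0.82, adjusted p = 0.000441) and Il1b, the gene of interleukin-1 beta (-1.13, adjusted p = 0.00285), were lower in Sirt3 K223R.

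Of 18 genes under the control of IRF8, 7 rose and 2 fell with IL-4 in wild type, against 10.7% and 15.3% of all genes, and 8 rose and 4 fell in Sirt3 K223R, against 13.5% and 29.1%. The median changes were 0.10 and 0.15, against -0.04 and -0.09 for all genes. Cybb, the NADPH oxidase subunit gene, which the PU.1 list also holds, fell from 224 to 139 FPKM and from 212 to 116 FPKM (limma adjusted p = 2.46e-05 and 1.05e-06). Cst3, the gene of cystatin C, rose from 732 to 939 FPKM and from 670 to 1044 FPKM. Gbp2, a guanylate-binding protein gene, rose from 4.81 to 33.5 FPKM in Sirt3 K223R and was higher there than in wild type after IL-4, where it averaged 11.3 FPKM (log2 difference 1.43, adjusted p = 0.000904). Its log2 change in Sirt3 K223R was 2.51, which exceeded that of wild type by 1.37 (SE 0.32, limma adjusted p = 0.0369). That interaction call was lost in 14 of the alternatives (adjusted p up to 0.0779). Ciita, the master regulator of MHC class II genes, averaged 6.02 FPKM in Sirt3 K223R against 1.44 FPKM after IL-4 (1.44, adjusted p = 0.000619), and Il18, a cytokine gene, 6.54 against 10.7 FPKM (-0.64, adjusted p = 0.00153).

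Within groups, Spi1, Cebpa and Cebpb varied together. Pearson correlations of their deviations from the group means over the 16 libraries, on the log2 scale, were 0.84 for Spi1 and Cebpa, 0.78 for Spi1 and Cebpb and 0.72 for Cebpa and Cebpb, points that share library preparation and base composition. Libraries numbered 3 in wild type stood high for all 3 genes in both treatments, with Cebpa at 177 FPKM in each. Replicate 2 of the IL-4-treated Sirt3 K223R cells was also high, with Spi1 at 136, Cebpa at 169 and Cebpb at 111 FPKM. The GC content of their transcripts is 58.9% for Spi1, 62.6% for Cebpa and 67.2% for Cebpb, above 93.2%, 98.8% and 99.9% of the genes. Over 9842 genes, the Spearman correlation between GC content and a library's deviation was 0.42 in that replicate 2, the highest of the 16, and 0.17 and 0.09 in the wild-type libraries numbered 3. It was 0.14 in replicate 2 of the IL-4-treated wild-type cells, where Spi1, Cebpa and Cebpb deviated by -0.05, -0.15 and -0.25. In untreated Sirt3 K223R cells it was -0.30 in replicate 3 and 0.31 in replicate 4, where the 3 genes deviated by -0.03 to 0.01 and by 0.02 to 0.09. It was lowest, at -0.33, in replicate 3 of the IL-4-treated Sirt3 K223R cells, where they deviated by -0.09, -0.12 and -0.22. The part of GC content in these deviations was not tested. Csf2rb and Csf2rb2 correlated at 0.86 within groups.

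**Figure D5:**
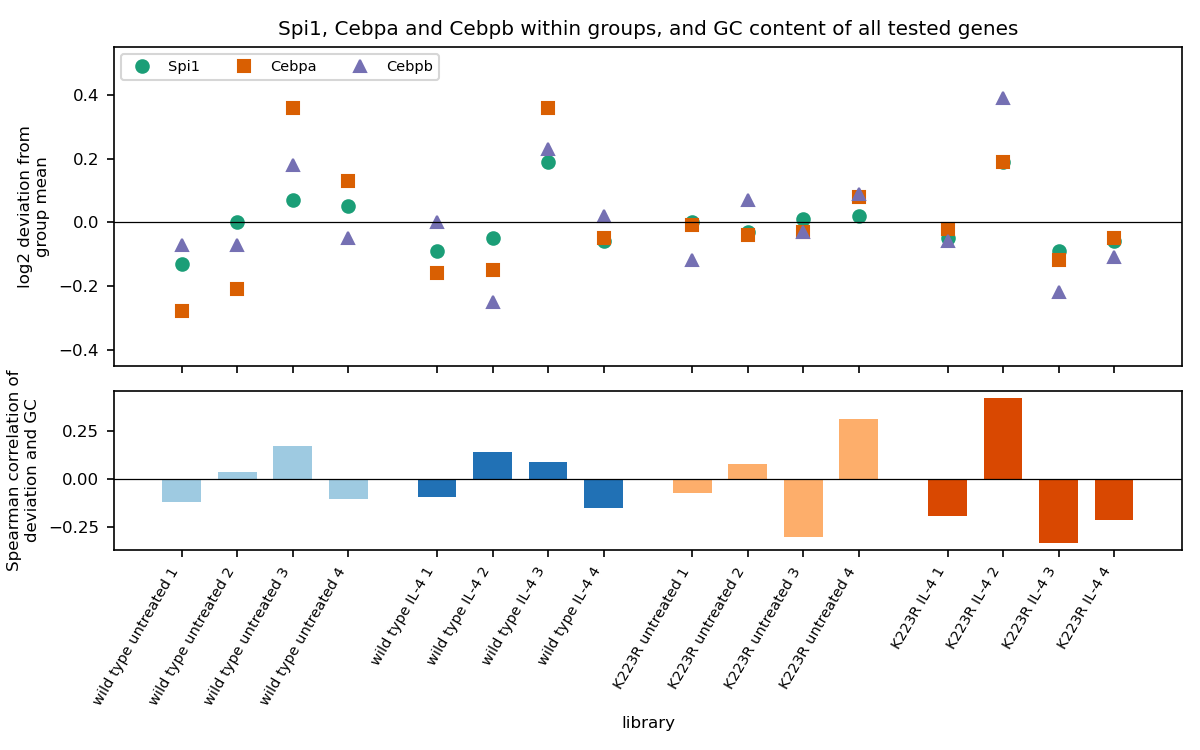
Upper panel: log2 deviation of Spi1, Cebpa and Cebpb from the group mean in each library. Lower panel: Spearman correlation over 9842 genes between GC content and the library's deviation, where replicate 2 of the IL-4-treated Sirt3 K223R cells is highest at 0.42.

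The genes whose pattern over the 16 libraries was most like each of the 9 were named by Pearson correlation on the log2(FPKM + 1) scale, a likeness that includes the group differences. Csf2rb was most like Tifab (0.980), Clint1 (0.980) and Galnt10 (0.978), and Tifab rose with it from 19.8 to 46.5 FPKM in wild type and from 24.1 to 59.7 FPKM in Sirt3 K223R. Csf2ra was most like Pkp2 (0.974), Atp2a2 (0.968) and Mxd4 (0.968), the last of which averaged 13.1, 20.1, 15.4 and 29.3 FPKM in untreated and treated wild type and untreated and treated Sirt3 K223R. Maf was most like Gm15440 (0.985), the chemokine receptor gene Cxcr3 (0.980) and Rcbtb2 (0.976). Cxcr3 fell from 3.11 to 0.577 FPKM in wild type and from 3.07 to 0.406 FPKM in Sirt3 K223R. Irf8 was most like Plxna2 (0.956), the taurine transporter gene Slc6a6 (0.951) and Zdhhc18 (0.948). With the group means removed, the correlation with the first gene named was 0.58 for Csf2rb, 0.49 for Csf2ra, 0.88 for Maf and 0.74 for Irf8.

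For the genes with smaller group differences the correlations were lower in most cases. Cebpa was most like the integrin gene Itgb5 (0.962, and 0.95 with the group means removed), Hey1 (0.887) and Vgll4 (0.871). Spi1 was most like Skil (0.891), Tmbim6 (0.888) and Pqlc1 (0.884), and Cebpb was most like the proteasome gene Psmb5 (0.859), Amd2 (0.837) and Inf2 (0.792). Csf1r was most like Tgfbi (0.819), Necap2 (0.815) and the complement gene C1qa (0.803). Csf3r was most like Gm10358 (0.904), Eif2b1 (0.892) and Lrrc75a (0.886), of which Lrrc75a averaged 6.76, 7.18, 6.05 and 4.49 FPKM in the groups in the order given for Mxd4.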

How the data were processed

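Per the labels' protocols, Trizol RNA went through either poly(A) selection or rRNA depletion (which library had which is not said) into strand-specific dUTP libraries. The deposited values were read as FPKM, although no header states a unit and TPM over more genes would look alike. Values sum to between 288143 and 306581 per library over 10920 genes. Low values are not whole multiples of 1 read, so depth is unknown, no counting interval can be given, and the spread of 4 libraries measures precision. The aligner, the counter and its strand setting, and the genome build were not given in the sources used here; coordinates equal GENCODE M21 (GRCm38) for 9510 of 9510 identifiers found with the same version, and a few of the 9 genes have other versions.

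The scale was log2(FPKM + 1), on which changes of low genes are understated. Genes with a value of at least 1 in at least 4 libraries (9891) were fitted with 4 group means over all 16 libraries in limma 3.58.1 (R 4.3.3), using moderated variances with a trend over the mean. P-values were 2-sided, adjusted by the Benjamini-Hochberg method over the 9891 genes, and called under 0.05. The fit was tested on simulated data. Members and lists were chosen with earlier results of these data known. Besides the 9 genes, the text names up to 4 called genes per list and comparison with the smallest adjusted p, or up to 2 with the highest level where none was called, and the 3 genes most like each of the 9; of these, a selection is printed, and a few are not reported here. Lists were counted in each direction and given no test. Marker lists covered macrophages, monocytes, neutrophils, dendritic cells, lymphocytes, mast cells, stromal and erythroid cells. GC content was taken over GENCODE M21 transcripts. In wild type, same-numbered untreated and IL-4-treated libraries had correlated deviations from their group means (0.286, 0.122, 0.100 and 0.116). All passed a cut of 0.1 for pairing, replicate 3 barely at 0.1001. In Sirt3 K223R (-0.05 to 0.13) not all passed it, although replicates 1 to 3 each correlated more with their own number than with any other. Whether libraries of that genotype are paired is not settled, and the block was fitted in both genotypes. Alternatives were another pseudocount, other filters, median-ratio scaling, quantile normalization, no trend, the compared groups alone, a replicate block and leaving out each library.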

Additional observations from a re-analysis of the deposited data

Results flagged for a closer look

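In 6 of 48 groups of 4 libraries, the extreme library lay further from its neighbour than Dixon's 95% critical value for the group's range allows, which chance gives in about 1 in 20 groups. The lowest library was set off for Csf1r in untreated Sirt3 K223R cells (501 FPKM), for Csf2rb in untreated wild-type cells (75.7 FPKM) and for Maf in IL-4-treated wild-type cells (20.4 FPKM). The highest library was set off for Cebpb in untreated wild-type cells (100 FPKM) and for Spi1 with IL-4 in wild type (135 FPKM) and in Sirt3 K223R (136 FPKM). The IL-4 response of Il3ra differed between genotypes by 0.49 on the log2 scale (limma, adjusted p = 0.0159).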

How the results depend on the processing

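Of 1125 values of the 9 genes recomputed under alternatives, 1089 kept their direction and side of the threshold, 2 lost their call, 11 gained one and 23 changed sign, none of those called; the cause was not tested. Changed signs under scaling were all of small changes. Median-ratio scaling gave 0.03 for Csf1r between genotypes after IL-4, 0.00 for the interaction of Spi1 and 0.03 for Cebpb with IL-4 in Sirt3 K223R. Quantile normalization gave -0.17 and -0.04 for Csf1r with IL-4 in Sirt3 K223R and wild type, and -0.15 and 0.00 for Cebpa and Cebpb in wild type. Leaving out a library moved the IL-4 change of Csf1r in Sirt3 K223R between -0.02 and 0.05, that of Cebpa in wild type between -0.12 and 0.12 and that of Cebpb between 0.00 and 0.16. It moved the untreated genotype difference of Csf3r between -0.04 and 0.01 and of Maf between -0.13 and 0.04, the difference after IL-4 of Spi1 between -0.06 and 0.07 and its interaction between -0.12 and 0.01.

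The count of genes called between genotypes after IL-4 fell from 1487 to 703 with only the compared groups in the fit. In untreated cells the count was 0, or 1 in that fit and between 0 and 2 without a library; the unadjusted p was under 0.05 for 737 genes, among them Cebpa, Csf2ra and Csf2rb. For the interaction 212 genes were called, between 112 and 344 without a library, 326 with a replicate block and 401 with the replicate number as a random effect (consensus correlation 0.152). Without replicate 1 of the IL-4-treated Sirt3 K223R cells 1 of the 9 genes, Csf3r, was called for the interaction, against 0 otherwise.

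The replicate block changed the call of Csf1r in wild type, given above with its value of 0.14, and of no other of the 9 genes there. In Sirt3 K223R pairing by number is not settled, and between genotypes the numbers were not paired. The block gave a call to Cebpa with IL-4 in Sirt3 K223R (-0.20, limma adjusted p = 0.0399). It also gave a call to Csf2rb between genotypes after IL-4 (0.23, adjusted p = 0.0309). Depth, enrichment method per library and the origin of replicates are unknown and limit every value.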

Other observations

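Marker lists of other cell types give a further view of these cultures, by counts alone. Of 14 macrophage identity genes tested, Csf1r included, 1 rose and 5 fell with IL-4 in wild type, against 10.7% and 15.3% of all genes, and 1 rose and 6 fell in Sirt3 K223R, against 13.5% and 29.1%. The list shares Itgam, Cd68, Msr1, Fcgr1, Lyz2 and Mpeg1 with the PU.1 list above. The falls of Fcgr1, Mpeg1 and Lyz2 in wild type are therefore counted in both, and quantile normalization ended that of Lyz2. Without Csf1r, the counts in Sirt3 K223R were 3 and 5 of 13 with median-ratio scaling and 3 and 6 without replicate 2 of the IL-4-treated Sirt3 K223R cells. Mertk, an efferocytosis receptor gene, fell from 43.4 to 28.4 FPKM and from 49.7 to 32.3 FPKM (limma, adjusted p = 0.000221 and 9.42e-05), while Csf1r was not called. Of the 8 neutrophil and granulocyte precursor genes, Csf3r included, 4 fell in wild type and 7 in Sirt3 K223R, and 0 rose, beside the same shares of all genes; Ngp, a granule protein gene, fell from 20.1 to 9.18 FPKM and from 21.8 to 7.75 FPKM.

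All 3 dendritic cell markers in the files (Irf4, Batf3 and Itgax) rose with IL-4 in both genotypes, against 10.7% and 13.5% of all genes. They are the same genes counted above among the lineage factors or the GM-CSF responsive genes, and 3 of 10 is few for that list. Of 3 monocyte markers tested, Chil3, which IL-4 is known to induce, rose from 13.8 to 1907 FPKM and from 18.8 to 6633 FPKM, and Cx3cr1 fell from 1.31 to 0.0657 FPKM and from 1.4 to 0.0204 FPKM. Both stromal genes tested, Acta2 and Sparc, fell in both genotypes, against 15.3% and 29.1% of all genes. The stromal list summed to at most 6.37 FPKM in any library. Of the 2 erythroid and megakaryocyte genes tested, Car2 rose from 0.0808 to 1.05 FPKM in wild type and from 0.0992 to 1.12 FPKM in Sirt3 K223R. Pf4 averaged 113 FPKM untreated and 175 FPKM with IL-4 in wild type, where it was not called. In Sirt3 K223R it averaged 146 and 277 FPKM and was called higher (limma adjusted p = 0.039). That call was lost in 8 of the alternatives (adjusted p up to 0.111). The lymphocyte list had 1 gene tested and 0 called, and the mast cell list had 0 tested.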
